A study of Mus musculus with 16 samples.

Results

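Cadherins and non-clustered protocadherins were followed in 2 dissected brain parts, the cerebellum and all that remained, of SINE KO mice and their WT littermates. Their probe sets (groups of short probes that read 1 transcript) were taken as all those whose single gene symbol in the platform annotation was Cdh or Pcdh followed directly by a digit. This rule, which uses names and no measured value, gave 33 of the 18194 genes with a probe set of their own and 72 of the 45101 probe sets. Of these, 21 genes with 39 probe sets were cadherins and 12 genes with 33 probe sets were protocadherins. The clustered protocadherins, which have a letter in that place, were left out. Cdh12 and Cdh24 had no probe set under the rule and were not analysed here.

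Gene expression was profiled on 16 Affymetrix arrays in 8 groups of 2, each a combination of genotype, sex and brain part. SINE KO mice were homozygous for a CRISPR deletion of 4 bases in the SINE exon of a brain-specific fusion transcript of Pgc1α, made in C57BL/6J, and came from a single line. Control animals were age-matched WT littermates, the specimens were matched for litter where possible, and the labels give no age. The brain stem was removed by gross dissection before the cerebellum was separated from the rest of the brain, and each array therefore reads a mixture of cell types. In such bulk samples, fewer cells of a type and less RNA per cell cannot be told apart. Each brain was split into both parts, but whether equally numbered arrays of the 2 parts share an animal is not given in the sources used here.

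Cadherins are single-pass membrane proteins that bind the same or a related cadherin on the neighbouring cell in the presence of calcium. The classical cadherins, divided into type I and type II, hold the catenins, and through them actin, on their cytoplasmic side. The delta protocadherins have longer extracellular parts and different tails, and several of them recruit the WAVE complex, which drives actin branching. In the brain, combinations of these genes mark nuclei, layers and fibre tracts, and they take part in axon sorting and synapse formation.

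The deposited values do not hold intensities. They take 5 distinct numbers, read here as levels 2 (detected), 1 (marginal) and 0, -1 or -2 (not detected), a reading that no source used here states. Every probe set of Actb and Gapdh was detected on all 16 arrays, Eif2s3y on all 8 male and no female array, and 2 of the 3 Xist probe sets on all 8 female and no male array. All 5 Ppargc1a probe sets were detected on all 16 arrays. Since a deletion of 4 bases need not remove a transcript, this does not check the genotype labels. Single arrays detected 25517 to 28155 probe sets. On average, marker lists differed between the parts: 83.1% of granule cell marker calls were positive in cerebellum and 50.0% in rest of brain, against 59.4% and 87.5% for striatal markers. Single arrays overlapped, with granule cell markers at 58.8% to 94.1% in cerebellum and 35.3% to 70.6% in rest of brain. Some arrays stood apart in these markers. WT female cerebellum replicate 2 detected 58.8% of granule cell, 69.2% of Purkinje cell and 87.5% of striatal marker probe sets, where the other 7 cerebellum arrays had 82.4% to 94.1%, 100% and 50.0% to 62.5%. KO female cerebellum replicates 1 and 2 detected 71.4% and 64.3% of the 14 hindbrain marker probe sets, against 7.14% to 35.7% on the other 6 cerebellum arrays. KO female rest of brain replicate 1 detected 100% of Purkinje cell and 70.6% of granule cell marker probe sets, where the other 7 rest-of-brain arrays had 61.5% to 84.6% and 35.3% to 64.7%. A call says whether a transcript was seen and not how much of it there was, so a gene detected in both parts may still differ in level.

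The promoters of the genes whose calls are described array by array below are shown first, because their probe sets had the lowest exact p between brain parts or a call found in 1 genotype alone within a sex and brain part. RefSeq windows of 300 bases (GRCm38.p6, 250 before and 50 after the start, read 5′ to 3′ on the strand of the gene) were at hand for 20 of the 33 genes, with 23 windows in all. Capitals mark CG pairs. The window of Cdh6 lies at chr15:13173626-13173925 on the minus strand, Cdh10 at chr15:18820079-18820378 on the plus strand and Pcdh10 at chr3:45378148-45378447 on the plus strand. That of Pcdh19 lies at chrX:133688944-133689243 on the minus strand and Cdh15 at chr8:122848124-122848423 on the plus strand. No window was given for Cdh3.
Cdh6: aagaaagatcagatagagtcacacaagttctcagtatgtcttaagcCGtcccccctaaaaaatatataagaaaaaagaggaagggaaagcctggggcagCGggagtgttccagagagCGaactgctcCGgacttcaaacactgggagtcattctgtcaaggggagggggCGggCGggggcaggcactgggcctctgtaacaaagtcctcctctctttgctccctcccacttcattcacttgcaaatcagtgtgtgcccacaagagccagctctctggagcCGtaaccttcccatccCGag
Cdh10: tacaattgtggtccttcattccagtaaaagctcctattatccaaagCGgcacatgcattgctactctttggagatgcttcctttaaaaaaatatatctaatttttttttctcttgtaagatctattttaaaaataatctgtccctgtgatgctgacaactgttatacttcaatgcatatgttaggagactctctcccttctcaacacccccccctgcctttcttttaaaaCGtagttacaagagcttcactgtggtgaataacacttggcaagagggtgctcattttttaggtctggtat
Pcdh10: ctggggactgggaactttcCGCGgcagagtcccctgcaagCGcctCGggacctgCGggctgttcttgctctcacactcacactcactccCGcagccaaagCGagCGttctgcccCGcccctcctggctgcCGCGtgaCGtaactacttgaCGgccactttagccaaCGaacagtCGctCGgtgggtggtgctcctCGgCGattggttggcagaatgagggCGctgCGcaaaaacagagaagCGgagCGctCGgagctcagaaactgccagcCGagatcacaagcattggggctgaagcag
Pcdh19: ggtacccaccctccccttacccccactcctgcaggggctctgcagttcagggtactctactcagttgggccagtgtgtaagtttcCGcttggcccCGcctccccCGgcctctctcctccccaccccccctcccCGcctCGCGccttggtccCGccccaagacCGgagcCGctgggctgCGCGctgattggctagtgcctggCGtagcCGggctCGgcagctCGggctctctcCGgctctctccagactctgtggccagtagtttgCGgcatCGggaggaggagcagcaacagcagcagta
Cdh15: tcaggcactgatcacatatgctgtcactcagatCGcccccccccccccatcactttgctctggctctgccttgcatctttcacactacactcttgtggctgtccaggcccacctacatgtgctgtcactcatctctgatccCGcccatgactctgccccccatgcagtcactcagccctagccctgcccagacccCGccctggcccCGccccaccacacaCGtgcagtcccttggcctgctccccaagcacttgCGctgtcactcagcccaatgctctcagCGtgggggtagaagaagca

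The windows differed in CG content. The Pcdh10 window held 24 CG pairs, more than 80.0% of the 32851 promoters of the table, and that of Pcdh19 held 18, more than 70.3% of them. Cdh6 held 8 and Cdh15 held 7, close to the median of 7 over all promoters, and Cdh10 held 2, with only 14.1% of promoters holding fewer. Over the 23 windows of the family the number ran from 2 (Cdh10) to 38 (Cdh22), with a median of 14. The letters TATAAA, searched on both strands, stood in 13.6% of all promoters and in 2 of the 23 windows, those of Pcdh8 and Pcdh15. None of the 5 windows printed held them. The arrays do not measure promoter activity, and these counts describe the sequences alone.

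Most of the family was detected throughout the brain. Of the 72 probe sets, 42 (58.3%) were detected on all 16 arrays, 15 (20.8%) on some and 15 (20.8%) on none. Over the whole table these shares were 48.0%, 25.0% and 27.0%. Counted by gene, with any probe set taken as detection, 25 of 33 genes were detected on all 16 arrays, 3 on some (Cdh3, Cdh15 and Cdh26) and 5 on none (Cdh16, Cdh17, Cdh18, Cdh23 and Pcdh12). Each array detected between 25 and 27 of the 33 genes.

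Probe sets of the same gene often differed. Of the 22 genes with more than 1 probe set, 8 had probe sets that were all on every array or all on none. In 6 of the 22 genes, 1 probe set was on every array and another on none, among them Cdh4, Cdh5 and Pcdh7. Of the 15 probe sets that varied between arrays, 12 belonged to a gene with another probe set on all 16 arrays. Most of what varied below is therefore the call of 1 probe set of a gene and not the detection of the gene.

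**Figure D1:**
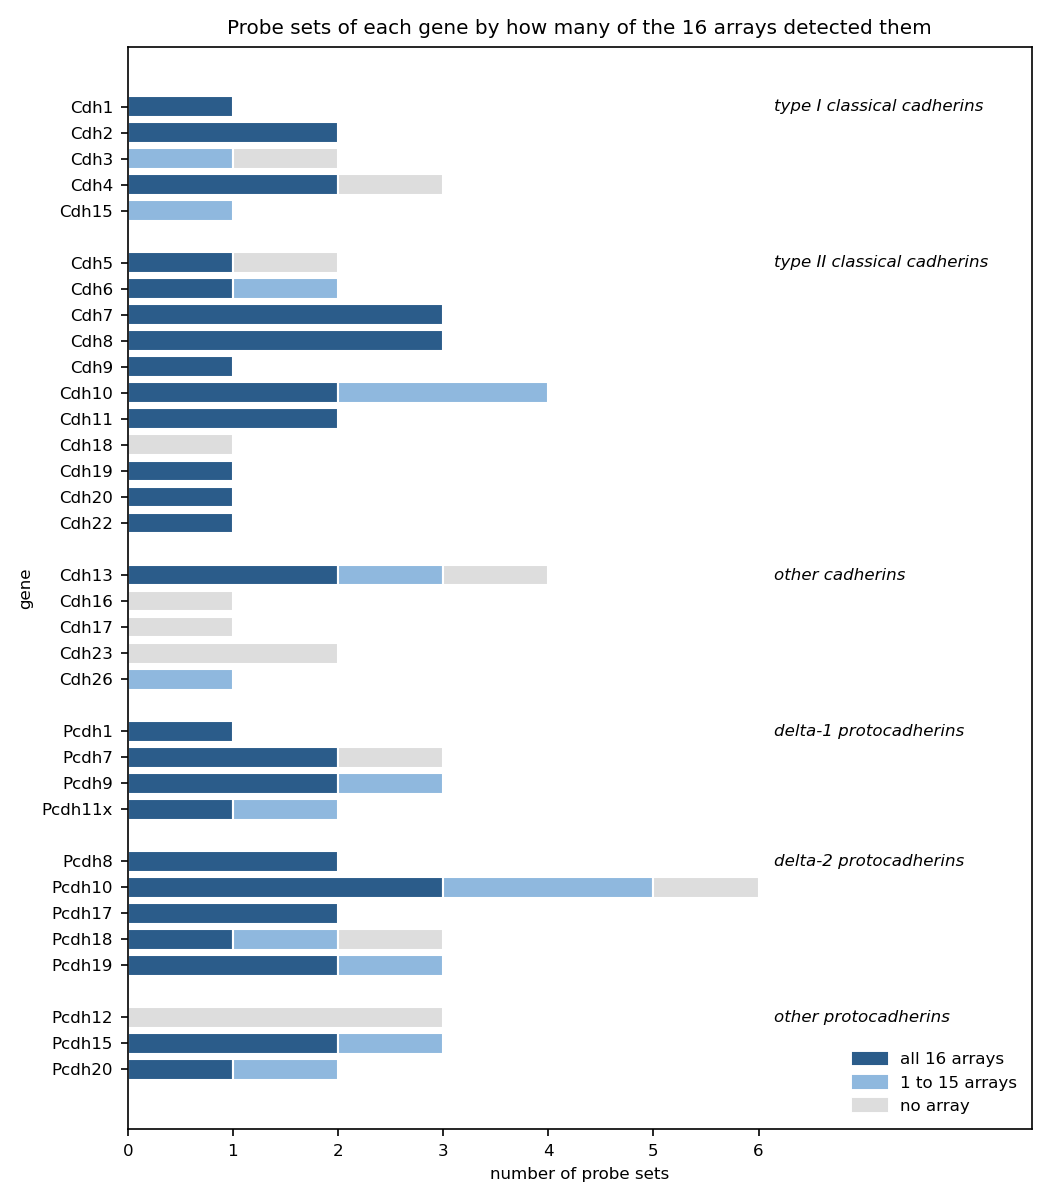
Number of probe sets (x axis) of each of the 33 genes (y axis, by gene group), coloured by whether the probe set was detected on all 16, on 1 to 15 or on none of the arrays. Pcdh10 has 6 probe sets, 3 on all arrays, 2 on some and 1 on none, while Cdh16, Cdh17, Cdh18, Cdh23 and Pcdh12 are grey throughout.

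The classical cadherins were widely detected. Of the 9 probe sets of 5 type I genes, 5 were on all arrays, 2 on some and 2 on none. The probe sets of Cdh1 (E-cadherin, of epithelia) and Cdh2 (N-cadherin, of neural tissue) were all on every array, and 2 of the 3 of Cdh4 (R-cadherin) were. Cdh3 (P-cadherin) had 1 probe set on no array and 1 on 3 arrays, although its neighbour on chromosome 8, Cdh1, was detected on all 16. Of the 21 probe sets of 11 type II genes, 16 were on all arrays, 3 on some and 2 on none, and 10 of the 11 genes were detected on every array. These included Cdh5 (VE-cadherin, of endothelial junctions), beside endothelial markers at 90.6% in cerebellum and 89.6% in rest of brain. All 3 probe sets each of Cdh7 and Cdh8 were on every array, and the only probe set of Cdh18 was on none.

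The remaining cadherins were the least detected group, with 5 of 9 probe sets on no array. Cdh13 (T-cadherin, held in the membrane by a lipid anchor rather than a transmembrane segment) had 2 of its 4 probe sets on all arrays. Cdh16, first known from kidney, Cdh17, of liver and intestine, and Cdh23, a strand of the tip link of inner ear hair cells, were on none. Its partner in the tip link, Pcdh15, had 2 of 3 probe sets on all arrays and the other on 1 array, KO female rest of brain replicate 2.

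The delta protocadherins were detected in both parts. All 4 delta-1 genes and all 5 delta-2 genes had at least 1 probe set on every array. Of the 9 delta-1 probe sets (Pcdh1, Pcdh7, Pcdh9, Pcdh11x), 6 were on all arrays, 2 on some and 1 on none. Of the 16 delta-2 probe sets (Pcdh8, Pcdh10, Pcdh17, Pcdh18, Pcdh19), 10 were on all, 4 on some and 2 on none. The delta-2 group had the widest gap in the share of positive calls, with 74.2% in cerebellum and 85.9% in rest of brain. For type II cadherins these shares were 83.3% and 89.9%, for delta-1 protocadherins 81.9% and 88.9%, and for type I cadherins 66.7% and 65.3%. Over all probe sets of the table they were 59.1% and 60.26%. All 3 probe sets of Pcdh12, a protocadherin of endothelium and placenta, were on no array.

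The first comparison was between the brain parts. Of the 15 probe sets that varied, 14 were detected on more rest-of-brain than cerebellum arrays and 1, of Cdh15, on more cerebellum arrays. Over the 11269 probe sets of the table that varied, 50.7% were on more rest-of-brain and 38.6% on more cerebellum arrays. Of the 14, 9 were on all 8 rest-of-brain arrays. Within the cerebellum 12 family probe sets (16.7%) varied, against 19.7% of the table, and within the rest of the brain 6 (8.33%), against 16.1%.

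**Figure D2:**
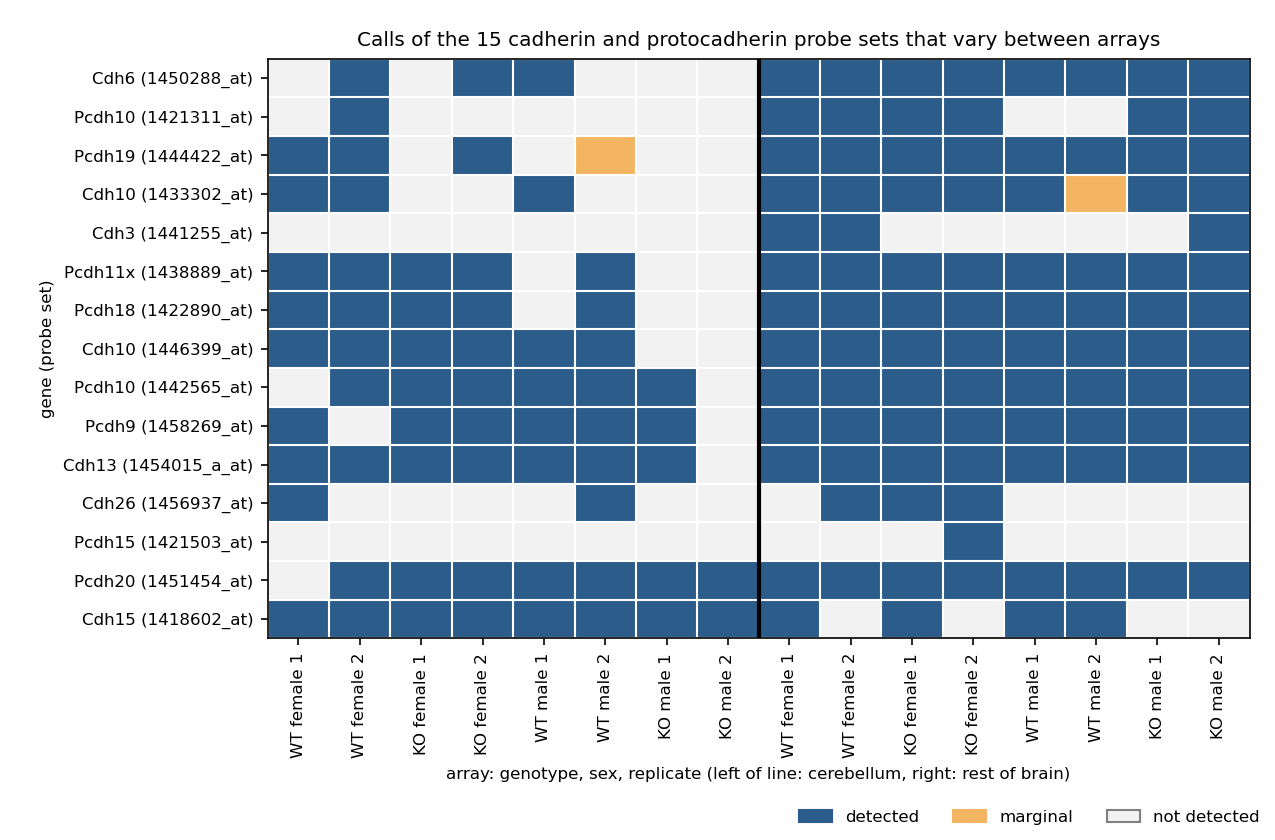
Calls of the 15 varying probe sets (rows) on the 16 arrays (columns, cerebellum left of the black line), coloured as detected, marginal or not detected. Missing calls gather in the cerebellum, most of all on the KO male arrays, where 5 and 2 of the 15 were detected, and the last row, Cdh15, is the exception.

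Cdh6, a type II cadherin of cortical and thalamic areas, had an uneven split of calls at probe set 1450288_at. This was detected on all 8 rest-of-brain arrays and on 3 cerebellum arrays, namely WT female replicate 2, KO female replicate 2 and WT male replicate 1. The other probe set of Cdh6 was on all 16 arrays. By Fisher's exact test, two-sided, p was 0.0256, or 0.0944 after Benjamini-Hochberg adjustment over the 3873 probe sets detected on 5 to 11 arrays, which are those able to reach an exact p under 0.05.

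Pcdh19, an X-linked delta-2 protocadherin whose loss causes epilepsy in heterozygous human females, gave the same counts at 1444422_at. It was detected on all 8 rest-of-brain arrays and on 3 cerebellum arrays, all female: both WT replicates and KO replicate 2. Of the 4 male cerebellum arrays, 3 did not detect it and WT replicate 2 was marginal. Its exact p was again 0.0256 (adjusted p = 0.0944), and its other 2 probe sets were on all 16 arrays.

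Pcdh10, a delta-2 protocadherin that binds the WAVE complex and guides striatal and thalamocortical axons, was read by 6 probe sets. Probe set 1421311_at was detected on 6 rest-of-brain arrays, all but the 2 WT male ones, and on 1 cerebellum array, WT female replicate 2. This is the cerebellum array with more striatal and fewer granule cell markers than the others, and the part of that in the result was not tested. The exact p was 0.0406 (adjusted p = 0.126). A second varying Pcdh10 probe set, 1442565_at, was on all 8 rest-of-brain and 6 cerebellum arrays, and 3 further ones were on all 16.

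These 3 were the only family probe sets with an exact p under 0.05 between the parts, all with fewer cerebellum arrays, and they are 4.17% of the 72. With marginal counted as detected the count was again 3, but Pcdh19 1444422_at left it (exact p = 0.0769) and Cdh10 1433302_at entered it (exact p = 0.0256). Of all probe sets 1.73% had an exact p under 0.05 with fewer cerebellum arrays and 1.04% with more. After adjustment over the 3873 probe sets, 0 of 72 passed 0.05 by Fisher's exact test, where 17.1% of the 3873 did, and only 5 of the 72 (these 3, Cdh26 1456937_at and Cdh10 1433302_at) were among the 3873. Adjusted over all 45101 probe sets, 0% of the table passed. No family probe set was on every array of one part and none of the other, against 0.31% of the table.

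Single arrays decided these calls. Without WT female cerebellum replicate 2, all 3 passed the adjusted threshold (Fisher's exact test, adjusted p = 0.0371 each, with Pcdh10 on 0 of 7 cerebellum arrays). By the same exact test, without WT female cerebellum replicate 1, Pcdh19 alone passed (adjusted p = 0.0443), without WT male cerebellum replicate 1, Cdh6 alone (adjusted p = 0.044), and without KO female cerebellum replicate 2, Cdh6 and Pcdh19 (adjusted p = 0.0448 each). Each of these omissions takes out a cerebellum array that detected the probe set in question, a call that goes against the difference. A lower exact p was therefore fixed in advance. Over all alternatives the lowest adjusted p of each of the 3 was 0.0371, while without both KO male cerebellum arrays that of Pcdh10 was 0.287. Where the calls could not reach an exact p under 0.05, as for all 3 with replicate numbers paired, no adjusted p exists. Without both KO male cerebellum arrays, 0 family probe sets had an exact p under 0.05, and 12 were still on a larger share of rest-of-brain arrays with 1 the other way. Without both KO female cerebellum arrays, the pair with the most hindbrain markers, 2 had an exact p under 0.05, Cdh6 and Pcdh19 (exact p = 0.015 each, adjusted p = 0.0742), while Pcdh10 had an exact p of 0.103.

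**Figure D3:**
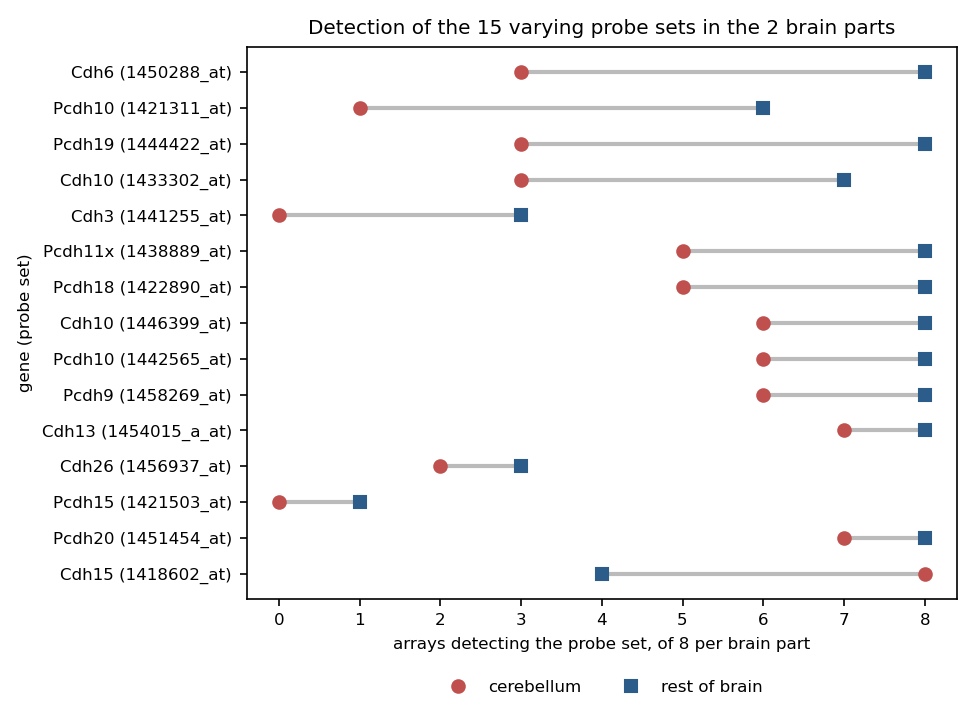
Number of arrays, of 8 in each part (x axis), that detected each varying probe set (y axis), with cerebellum as circles and rest of brain as squares joined by a line. The square lies to the right for 14 of the 15 probe sets and to the left for Cdh15 only.

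Cdh15, or M-cadherin, a type I cadherin of muscle satellite cells and cerebellar granule cells, went the other way. Its only probe set, 1418602_at, was detected on all 8 cerebellum arrays and on 4 rest-of-brain arrays, WT female replicate 1, KO female replicate 1 and both WT male replicates. The exact p was 0.0769, and with 12 positive arrays the probe set could not reach 0.05. Leaving out any 1 of the 4 rest-of-brain arrays that detected it gave an exact p of 0.0256, but this removes a call that goes against the difference. By the same Fisher's exact test, adjusted p was 0.104 without WT female rest of brain replicate 1. It was 0.106 without WT male rest of brain replicate 1. Granule cell markers also differed between the parts: of their 17 probe sets, 58.8% to 94.1% were detected per cerebellum array and 35.3% to 70.6% per rest-of-brain array. Within the rest of the brain the granule cell share was 35.3%, 52.9%, 64.7% and 70.6% on the 4 arrays that detected Cdh15. It was 35.3%, 41.2%, 47.1% and 52.9% on those that did not. Of 12 skeletal muscle marker probe sets, 0% to 16.7% were detected per cerebellum array and 8.33% on each rest-of-brain array. The 70.6% is that of KO female rest of brain replicate 1, which also detected all Purkinje cell marker probe sets and was the only KO rest-of-brain array to detect Cdh15. With it kept, Cdh15 was on 1 KO and 3 WT rest-of-brain arrays. Without it Cdh15 was on 3 of 7 rest-of-brain arrays, all WT. Since this omission takes out the only KO array that detected Cdh15, that remainder was fixed in advance and cannot show a difference between genotypes. The part of granule cells in the Cdh15 calls was not tested.

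Cdh10, a type II cadherin next to Cdh9 on chromosome 15, had 2 of 4 probe sets that varied. Probe set 1433302_at was on 7 rest-of-brain arrays, with WT male replicate 2 marginal, and on 3 cerebellum arrays, both WT female replicates and WT male replicate 1 (exact p = 0.119). Probe set 1446399_at was on all 8 rest-of-brain and 6 cerebellum arrays, missing on both KO male cerebellum arrays only. Cdh3 1441255_at was on no cerebellum array and on 3 rest-of-brain arrays, both WT female replicates and KO male replicate 2.

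The other 8 varying probe sets, those of Pcdh10 and Pcdh15 given above among them, differed by 1 to 3 arrays between the parts. Pcdh11x 1438889_at and Pcdh18 1422890_at were each on 5 cerebellum and 8 rest-of-brain arrays, and both were missing on the same 3 arrays, WT male cerebellum replicate 1 and both KO male cerebellum replicates. Pcdh9 1458269_at was on 6 cerebellum and 8 rest-of-brain arrays, and Cdh13 1454015_a_at and Pcdh20 1451454_at on 7 and 8. Cdh26 1456937_at, the only probe set of its gene, was scattered over 2 cerebellum and 3 rest-of-brain arrays.

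Within the sexes and genotypes taken alone, a switch was counted where all 4 arrays of one part and none of the other detected a probe set, for which the smallest exact p is 0.0286. In males 1 family probe set switched, Pcdh19 1444422_at, against 1.44% of the table, and in females 0, against 0.792%. In KO mice 2 switched, Pcdh10 1421311_at and Cdh10 1433302_at, against 1.25%, and in WT mice 0, against 0.585%. All 3 were detected in the rest of the brain. Whether the gap between the parts differed between groups was tested for the 15 varying probe sets by exact permutation within each brain part (4900 arrangements, two-sided). The lowest permutation p for genotype was 0.0714 (Cdh10 1433302_at, adjusted p = 1), and the lowest for sex was 0.143 (Pcdh11x, Pcdh18 and Pcdh19, adjusted p = 0.715). The gap differed by -100 points (KO minus WT) for Cdh10 and by 75 points (female minus male) for each of the others. These are the largest differences that their numbers of positive arrays allow, so no lower permutation p was possible for them. For these probe sets the test therefore could not decide whether the gap differed between groups.

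The second comparison asked whether loss of the SINE isoform changed the calls. By Fisher's exact test of the 8 KO against the 8 WT arrays, 0 family probe sets had an exact p under 0.05, against 0.0843% of the table, and 0 passed after adjustment, as in the whole table (0%). Only 5 of the 72, the same as between the brain parts, could reach an exact p under 0.05. For the others the result was fixed in advance, so the test could not decide whether their calls changed. Of the 15 varying probe sets, 10 were on more WT arrays, 3 on more KO arrays and 2 on equal numbers. Among the 11269 varying probe sets in all, 41.4% were on more WT and 36.5% on more KO arrays.

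The excess in WT lay in the male cerebellum. There 9 family probe sets varied and all 9 were on more WT than KO arrays, where 52.1% of the varying probe sets of the table were on more WT and 27.8% on more KO arrays. In the female cerebellum, 3 were on more KO and 4 on more WT arrays. In the rest of the brain, 2 and 1 were in females and 3 and 1 in males. KO male cerebellum replicates 1 and 2 detected 47 and 44 family probe sets and 26384 and 25517 probe sets in all, the last being the lowest of the 16 arrays. WT male cerebellum replicates 1 and 2 detected 50 and 51 family probe sets and 27204 and 26368 in all, the last being below KO replicate 1. On the KO male arrays 57.1% and 50.0% of the 14 choroid plexus marker probe sets were detected, against 64.3% to 85.7% on the other 6 cerebellum arrays. The part of these in the result was not tested.

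**Figure D4:**
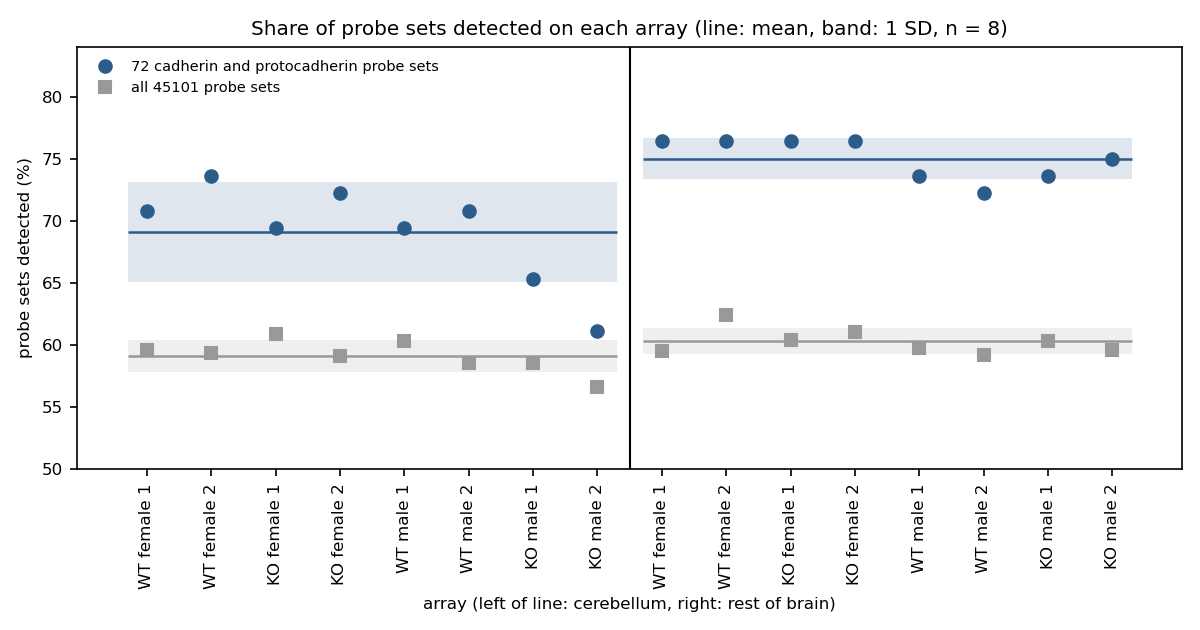
Percentage of probe sets detected (y axis, starting at 50%) on each array (x axis) for the 72 family probe sets (circles) and for all 45101 (squares), with lines at the mean of each brain part and bands of 1 SD (n = 8 arrays). The family mean is 69.1% in cerebellum and 75.0% in rest of brain, and the KO male cerebellum arrays are the lowest circles at 65.3% and 61.1%.

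Per array, the number of family probe sets detected was 44 to 53 in the cerebellum (49.75 ± 2.92, SD, n = 8) and 52 to 55 in the rest of the brain (54 ± 1.2, SD, n = 8), and the ranges overlap. The difference in the share detected, cerebellum minus rest of brain, was -5.9 percentage points, or -3.94 points without the KO male cerebellum arrays. The difference KO minus WT was -1.74 points, and without those arrays it was 0.926 points. Over all probe sets of the table, the mean share detected was 59.1% in cerebellum and 60.26% in rest of brain. It was 59.55% on KO and 59.81% on WT arrays. Counted by gene, the difference between the brain parts was 0.

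Within one sex and brain part, 5 family probe sets were detected on both arrays of one genotype and neither of the other. With 2 arrays against 2, the smallest exact p is 0.333, so these are given as values. In the female cerebellum, Cdh10 1433302_at was detected in WT alone, as were 0.71% of the probe sets of the table, and 0 family probe sets in KO alone (0.743%). The 2 KO arrays of this comparison are those with the most hindbrain markers, whose part was not tested. In the male cerebellum, Cdh10 1446399_at was in WT alone (0.792% of the table) and 0 in KO alone (0.313%). In the female rest of the brain, Cdh3 1441255_at was in WT alone (0.49%) and 0 in KO alone (0.45%). In the male rest of the brain, Cdh15 1418602_at was in WT alone (0.448%) and Pcdh10 1421311_at in KO alone (0.576%). No probe set switched in both sexes or in both brain parts. Cdh10 was in WT alone in the cerebellum of each sex, but at a different probe set, and neither of these switched in the other sex.

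Between females and males, 0 family probe sets had an exact p under 0.05 by Fisher's exact test, against 0.286% of the table, and 0 passed after adjustment, as in the table (0%). Here too only 5 of the 72 could reach an exact p under 0.05. Of the 12 that varied within the cerebellum, 8 were on more female and 1 on more male arrays. Over the table these shares were 49.1% and 34.2%. The male cerebellum arrays include the KO male pair, which detected the fewest family probe sets.

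The intracellular partners were mostly detected. Of 41 probe sets of 16 catenin and junction genes, 26 were on all arrays, 8 on some and 7 on none, and all 3 probe sets of Ctnnb1 (beta-catenin, which links classical cadherins to alpha-catenin) were on every array. In this list 1 probe set had an exact p under 0.05 between the parts, Vcl 1416157_at (vinculin, which binds alpha-catenin under tension), on 2 cerebellum and 7 rest-of-brain arrays (exact p = 0.0406, adjusted p = 0.126). Of 22 probe sets of 10 genes of the WAVE complex and delta protocadherin partners, 15 were on all arrays, 2 on some and 5 on none, and 0 had an exact p under 0.05. The only probe set of Nckap1, the WAVE subunit that Pcdh10 binds, was on all 16 arrays. Of the 10 probe sets of 6 tip-link partners, 2 were on all arrays (Lhfpl5 and Myo7a), 2 on some and 6 on none.

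Of 34 probe sets of 21 other genes of the cadherin superfamily, 13 were on all arrays, 15 on some and 6 on none. Fewer cerebellum arrays detected Dsg2, a desmosomal cadherin, at 2 probe sets. Probe set 1449740_s_at was on 0 cerebellum and all 8 rest-of-brain arrays (Fisher's exact test, adjusted p = 0.0043, or 0.0501 over all probe sets), and 1425619_s_at on 2 and 8 (adjusted p = 0.0409, or 0.476). Among the other Dsg2 probe sets, 1439476_at was on all 16 arrays, 1460380_at on 0 cerebellum and 2 rest-of-brain arrays, and 1426153_a_at and 1449741_at on none. In this list 4 probe sets were among the 3873 able to reach an exact p under 0.05. After adjustment 2 of them passed, where 17.1% of the 3873 did. More cerebellum arrays detected Fat2, an atypical cadherin of granule cells that is also on the granule cell marker list, with 7 against 1 (exact p = 0.0101, adjusted p = 0.0507), and Dchs1, the ligand of Fat4, with 8 against 3 (exact p = 0.0256, adjusted p = 0.0944). Between KO and WT, 0 probe sets of the 4 lists had an exact p under 0.05.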

How the data were processed

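RNA was extracted with TRIzol, amplified with a 3′ IVT kit and hybridized to Affymetrix arrays by the authors, whose methods and processing notes name the MAS5 algorithm and whose results name RMA normalization. The probe set names belong to a mouse array, although the methods give a human one. The deposited table holds 1 score per probe set and array, with 5 distinct numbers. As 4-byte numbers their first byte is 2, 1, 0, -1 or -2, and a value above 5e-38 was read as detected. Of the 25 negative levels in the family, all were at probe sets on no array. Intensities were not analysed here. All 33 genes matched RefSeq by gene ID.

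The members and the lists were chosen with earlier results of these data known, as was the limited adjustment below. The labels give groups, and the Fisher p-values treat all arrays as independent. Since each brain was split into both parts, a genotype or sex group may hold 2 arrays of 1 mouse. The p-values between genotypes and between sexes do not take this into account. Detected or not was compared by a two-sided Fisher's exact test for 8 against 8 arrays, with Benjamini-Hochberg adjustment over the 3873 probe sets detected on 5 to 11 arrays, and over all 45101 as an alternative. A call was an adjusted p under 0.05. Members were described array by array when an exact p was under 0.05, or when both arrays of one genotype and neither of the other detected them within one sex and brain part. Alternatives counted marginal calls as detected, counted genes, left out probe sets ending in _x_at or _s_at, paired replicate numbers, permuted genotypes within sex and brain part (1296 arrangements), left out each array and took each sex or genotype alone. Arrays show no sequencing depth, and their number limits the precision. The tests were tried on simulated calls. Computing used scipy 1.17.1, pandas 2.3.3 and numpy 2.4.6 under Python 3.11.15, and plots matplotlib 3.10.9.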

Additional observations from a re-analysis of the deposited data

How the results depend on the processing

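Of the 10 counts and shares followed here, the counts of family probe sets called between KO and WT and between females and males were 0 under every alternative run, and that between the brain parts was 0 under all but single-array omissions. With 8 against 8 arrays only 5 of the 72 could reach an exact p under 0.05, so for the others the 0 was fixed in advance. Each omission that gave a call between the parts took out a cerebellum array that detected the probe set called. Leaving out 1 array at a time, between 0 and 3 family probe sets were called between the brain parts, 3 to 5 had an exact p under 0.05, 5 to 8 were switched between KO and WT within one sex and brain part, 13 to 14 were on a larger share of rest-of-brain arrays, and the difference in the share detected was -6.55 to -4.76 points between the parts (cerebellum minus rest of brain) and -2.48 to -0.298 points between genotypes (KO minus WT). The 5 with an exact p under 0.05 arose without WT male rest of brain replicate 2, where Cdh10 1433302_at and Cdh15 1418602_at joined (exact p = 0.0256 each). The 8 switches arose without WT female cerebellum replicate 2, WT male cerebellum replicate 1 or KO male cerebellum replicate 1, where 1 array then stands for a genotype. Counted by gene, 2 genes were switched between KO and WT, the difference in the share between parts was 0, 0 had an exact p under 0.05, and 2 were on a larger share of rest-of-brain arrays. Without both KO male cerebellum arrays, an alternative chosen after seeing the data, these differences were -3.94 and 0.926 points, and 0 probe sets had an exact p under 0.05. In males alone 1 probe set switched between the parts and 2 were on more cerebellum arrays. In KO mice alone 2 switched and the share differed by -8.33 points, and in WT mice alone it differed by -3.47 points, with 9 probe sets on more rest-of-brain and 2 on more cerebellum arrays. The cause was not tested, except that counting by gene hides a probe set whose gene has another on every array and that omissions leave fewer arrays. Without both KO female cerebellum arrays, also chosen after seeing the data, 2 had an exact p under 0.05, 4 were switched between KO and WT, and the shares differed by -6.48 points between the parts and -1.62 points between genotypes. With the replicate number as a block (exact sign test of pairs), 0 family probe sets had p under 0.05 between the brain parts. Those of Cdh6, Pcdh10 and Pcdh19 were at 0.0625, and 0 were called in any comparison. No family probe set had enough differing pairs to reach 0.05 in this test, so these counts were fixed in advance. Deviations of same-numbered arrays correlated between -0.0181 and 0.0647, so the calls gave no sign of a pairing by number; whether equally numbered arrays share an animal or a litter is not settled by this. With 16 arrays and calls in place of intensities, a difference in level between arrays that all detect a gene was not detectable.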
